A study of Sus scrofa with 20 samples.

Results

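The sole of the foot and the snout, the 2 sparsely haired skin surfaces sampled in these pigs, were compared in 10 of the 20 RNA-seq libraries of the study: 5 libraries of sole skin and 5 of snout skin, 1 of each from every pig. The 5 pigs were wild-type female Yorkshire animals aged 4, 5, 6, 7 and 8 months. Each gave punch biopsies of the underside of the foot (label volar), the trunk (label flank), the upper foot (label dorsal) and the snout, and the submitters profiled expression to set these sites against each other. A punch biopsy mixes epidermis, dermis and any tissue beneath them in its core.

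The 10 libraries were regrouped from the labels. Library numbers fall in 2 ranges. The lower range, called here the first set, holds the 12 libraries from pigs of 4, 7 and 8 months. The higher range, called the second set, holds the 8 from pigs of 5 and 6 months. The 3 sole libraries of the first set carry the label volar and its 3 snout libraries the label snout. In the second set the libraries labelled flank were taken as sole and those labelled volar as snout, so the second-set members were chosen by their correlation with the first set. Over the 2000 most variable genes, centred within each set, the libraries labelled flank of the 6- and 5-month pigs correlated with the first-set volar mean at r of 0.87 and 0.873, and with the first-set snout mean at 0.0251 and 0.011. The libraries labelled volar of the same pigs correlated with the first-set volar mean at 0.00189 and 0.0401 and with the first-set snout mean at 0.83 and 0.774. The second-set libraries labelled snout and dorsal were left out of the 10. Those labelled snout correlated with the first-set snout mean at -0.488 and -0.473 in the same pigs. Their r was 0.86 and 0.82 with the dorsal mean and 0.636 and 0.682 with the flank mean. Those labelled dorsal had 0.807 and 0.841 with the flank mean and 0.746 and 0.623 with the dorsal mean. These values are given as a description. For that reason the tests below compare only first-set libraries, the 3 labelled volar with the 3 labelled snout. The fit takes in all 12 first-set libraries, so flank and dorsal skin enter the estimate of the spread. The second-set libraries are shown as values with no p.

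Sole epidermis is known for a thick cornified layer, built by keratinocytes that fill with the keratins KRT1 and KRT10, cross-link a protein envelope and are joined by many desmosomes. The pig snout disc is a moist touch organ over cartilage and facial muscle, with glands that wet it, sparse bristles and a rich nerve supply. Limb and trunk skin cells keep a positional code of HOX genes from the embryo, whereas the skin of the face comes largely from cells of the cranial neural crest that lack most HOX expression and carry craniofacial homeobox genes instead.

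Per-library levels are counts scaled to library size by TMM (CPM) and are given in the order of pig age, 4, 5, 6, 7 and 8 months, so the second-set libraries are the second and the third values. RHCG, an ammonium transporter of kidney and oesophageal epithelium, had 563, 714, 793, 639 and 329.5 CPM in sole, against 7.35, 10.1, 5.14, 7.14 and 6.56 CPM in snout. EN1, the homeobox gene of the ventral limb surface, had 14.8, 19.99, 14.7, 11.6 and 9.14 CPM in sole, against 0.891, 0.742, 0.541, 0.278 and 0.428 CPM in snout. KRT24, a type I keratin, had 0.709, 0.175, 1.05, 0.283 and 0.136 CPM in sole, against 17115, 15230.1, 14034, 9666 and 12298 CPM in snout. All 5 sole libraries stood on one side of all 5 snout libraries for these markers. ALX1, a homeobox gene of facial mesenchyme, had 0.329, 0, 0, 0 and 0.291 CPM in sole, against 18.2, 19.8, 19.04, 18.7 and 18.6 CPM in snout, and it separated the sides in the same way. These 4 genes were picked as markers of the sides from these data, so their levels are a description. Where a list below holds one of them (KRT24 among the keratins, RHCG among the transport genes, both among the mucosal genes, EN1 among the limb genes and ALX1 among the craniofacial ones), it is in the count of called genes because of that choice.

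Totals of the 10 libraries ran from 34809878 to 66906489 counts. KRT1 alone took 14.6 to 26.7% of the counts in the sole libraries, against 0.365 to 0.539% in the snout libraries. Across 15275 genes, log2 levels correlated at 0.953 to 0.982 among sole libraries, 0.95 to 0.983 among snout libraries and 0.881 to 0.96 between the sides. The snout libraries differed in muscle: the summed skeletal muscle list had 63.3, 96.7, 66.5, 95.5 and 80.98 CPM in sole, against 64.7, 8345, 13833, 17325 and 64.8 CPM in snout. The snout libraries of the 5-, 6- and 7-month pigs thus carried muscle genes, and those of the 4- and 8-month pigs lay within the range of sole. Of the defining muscle genes, ACTA1, the skeletal actin, had 0.202, 1.05, 0.871, 0.849 and 0.213 CPM in sole, against 0.811, 751, 1217, 2241 and 0.823 CPM in snout, and MYOT, a Z-disc protein, was at 0 in all 5 sole libraries and in the 4-month snout library. The 7-month library is 1 of the 3 snout libraries tested, so counts are also given without it.

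In the first set, 1768 of 15302 genes tested, or 11.6%, differed between volar and snout skin (edgeR quasi-likelihood test, Benjamini-Hochberg adjusted p under 0.05): 873 were higher in volar (5.71%) and 895 were lower (5.85%). The replicates are 3 pigs that each gave both sites. The fit has no term for the pig and pools the spread between pigs within each of the 4 sites, so these p-values do not use the pairing. Changes were larger on the snout side: 388 of the genes higher in volar differed by at least 2-fold and 45 by at least 16-fold, against 716 and 219 of those lower in volar. The median log2 fold change was 0.91 among genes called higher and -2.02 among genes called lower, and -0.00167 over all genes. Without the 7-month snout library 1033 genes were called, 502 higher and 531 lower, and without the 7-month volar library 1025, 524 higher and 501 lower. In bulk skin, fewer cells of a type and less RNA per cell cannot be told apart.

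Over all 10 libraries, 3198 of the same genes (20.9%) had levels that did not overlap between the sides, 1570 with sole above (10.3%) and 1628 with sole below (10.6%). Of the 873 genes called higher in volar, 772 had all 5 sole libraries above all 5 snout libraries, and of the 895 called lower, 765 had all 5 below. In 0 genes did the 5 against 5 run the other way. The second-set libraries were placed by their expression, so this overlap describes the regrouping and is no separate support.

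Among the genes furthest to the volar side after the markers were a keratin, an ephrin receptor, a limb factor, an arginase and a collagenase. KRT1, the differentiation keratin of the upper epidermis, had 204514, 385244, 464242, 219969 and 181630.3 CPM in sole, against 3355, 4224, 5073, 3734 and 4779 CPM in snout, a log2 fold change of 5.67 ± 0.29 (SE; 3 pigs each; edgeR adjusted p = 4.44e-06). EPHA8, a receptor for ephrins, had 6.96, 5.52, 4.58, 8.13 and 6.37 CPM in sole, against 0.0954, 0.163, 0.0811, 0.139 and 0.154 CPM in snout (5.76 ± 0.40; adjusted p = 2.53e-05). The 2 sides were far apart for both genes, and EPHA8 reached at most 0.163 CPM in a snout library. SP8, a zinc finger factor of the limb bud's apical ridge, had 8.28, 11.04, 10.998, 5.74 and 4.75 CPM in sole, against 0, 0, 0, 0.0696 and 0 CPM in snout (7.83 ± 0.84; adjusted p = 0.00096). ARG1, an arginase, had 73.95, 248, 58.7, 69.9 and 90.96 CPM in sole, against 2.004, 3.19, 0.649, 5.44 and 2.399 CPM in snout (4.57 ± 0.58; adjusted p = 0.00101). MMP13, a collagenase, had 9.34, 11.4, 1.604, 6.51 and 11.4 CPM in sole, against 0.2703, 0.342, 0.352, 0.459 and 0.411 CPM in snout (4.56 ± 0.44; adjusted p = 0.000213). The 6-month pig had the lowest sole level of MMP13.

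The genes furthest to the snout side included a protease, a claudin, a transglutaminase and metabolic enzymes, besides the hair and gland genes described further on. TMPRSS11D, a trypsin-like protease first found in airways, had 0, 0.0699, 0.0458, 0.0257 and 0.0582 CPM in sole, against 138, 140.2, 134, 119 and 109.9 CPM in snout (-11.87 ± 0.57; adjusted p = 4.44e-06). CLDN17, a tight-junction claudin, had 0, 0.0349, 0.0458, 0 and 0 CPM in sole, against 17.97, 20.3, 28.05, 18.4 and 25.7 CPM in snout. With 0 counts in the first-set volar libraries it was at least 886-fold lower there (bound at 3 counts over the group; adjusted p = 0.00311). In both genes the snout libraries differed from each other by little compared with the gap to sole. TGM7, a transglutaminase, had 0.0759, 0.105, 0.137, 0 and 0.0388 CPM in sole, against 78.9, 48.9, 151, 64.8 and 95.003 CPM in snout (-10.94 ± 0.89; adjusted p = 6.97e-05). CBR2, a carbonyl reductase, had 0.253, 0, 0, 0.617 and 0.136 CPM in sole, against 48.6, 171, 91.6, 178 and 73.5 CPM in snout (-8.26 ± 1.44; adjusted p = 0.00507). DGAT2L6, a lipid acyltransferase, had 0, 0.105, 0, 0 and 0 CPM in sole, against 3.63, 3.49, 9.36, 8.59 and 7.42 CPM in snout, at least 287-fold lower in volar (adjusted p = 0.0122). The rule that named the leading genes of either side required levels of sole and snout that did not overlap, so that separation is no finding.

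**Figure D1:**
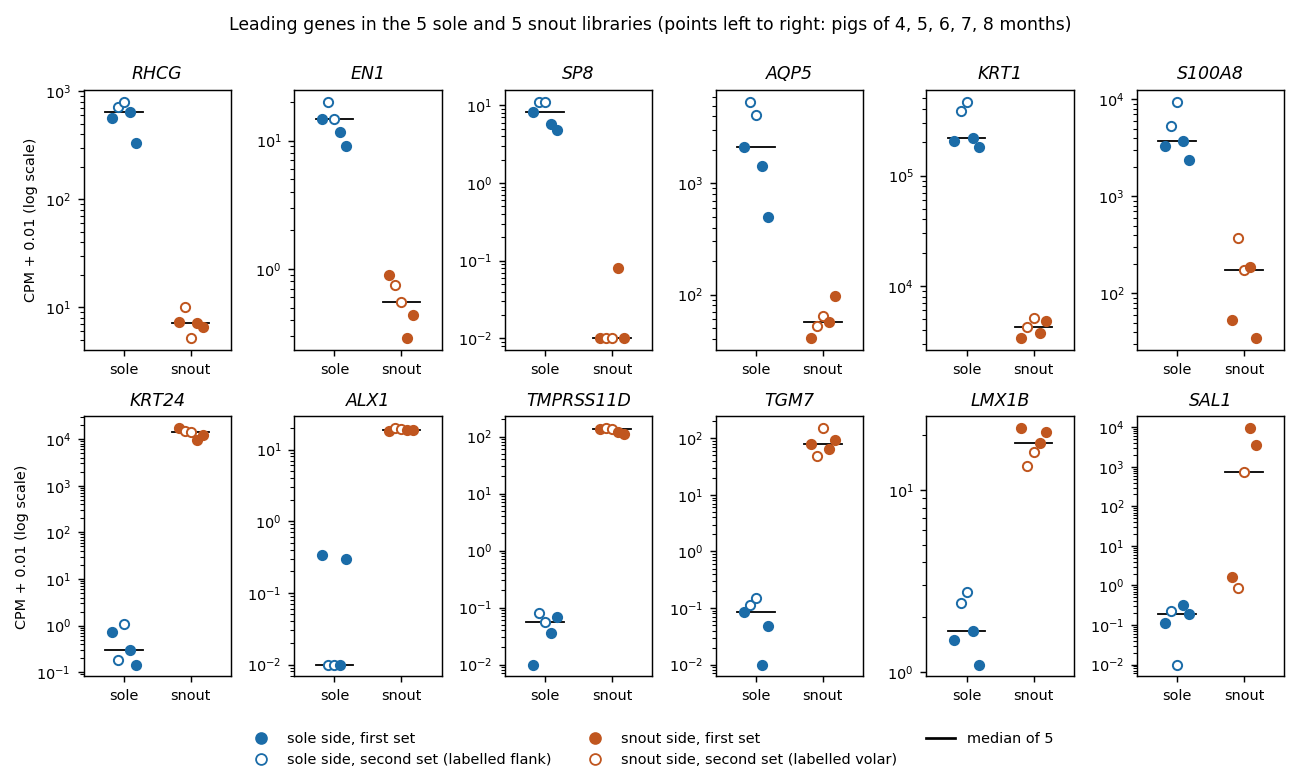
Levels of 12 leading genes in the 10 libraries (CPM with 0.01 added, log scale), sole left and snout right in each panel, points in order of pig age, filled points the first set and open points the second, black lines the medians of 5. RHCG, EN1, SP8, AQP5, KRT1 and S100A8 have every sole library above every snout library, and KRT24, ALX1, TMPRSS11D, TGM7, LMX1B and SAL1 the reverse; SAL1 differs widely among the snout libraries.

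The gene lists that follow group these changes by role, and some genes stand in more than 1 list. Their members were counted against the background of 5.71% higher and 5.85% lower. The chart of 31 lists shows the HOX lists and the defence, protease and cornified lists to the volar side and hair, gland, touch and craniofacial lists to the snout side.

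**Figure D2:**
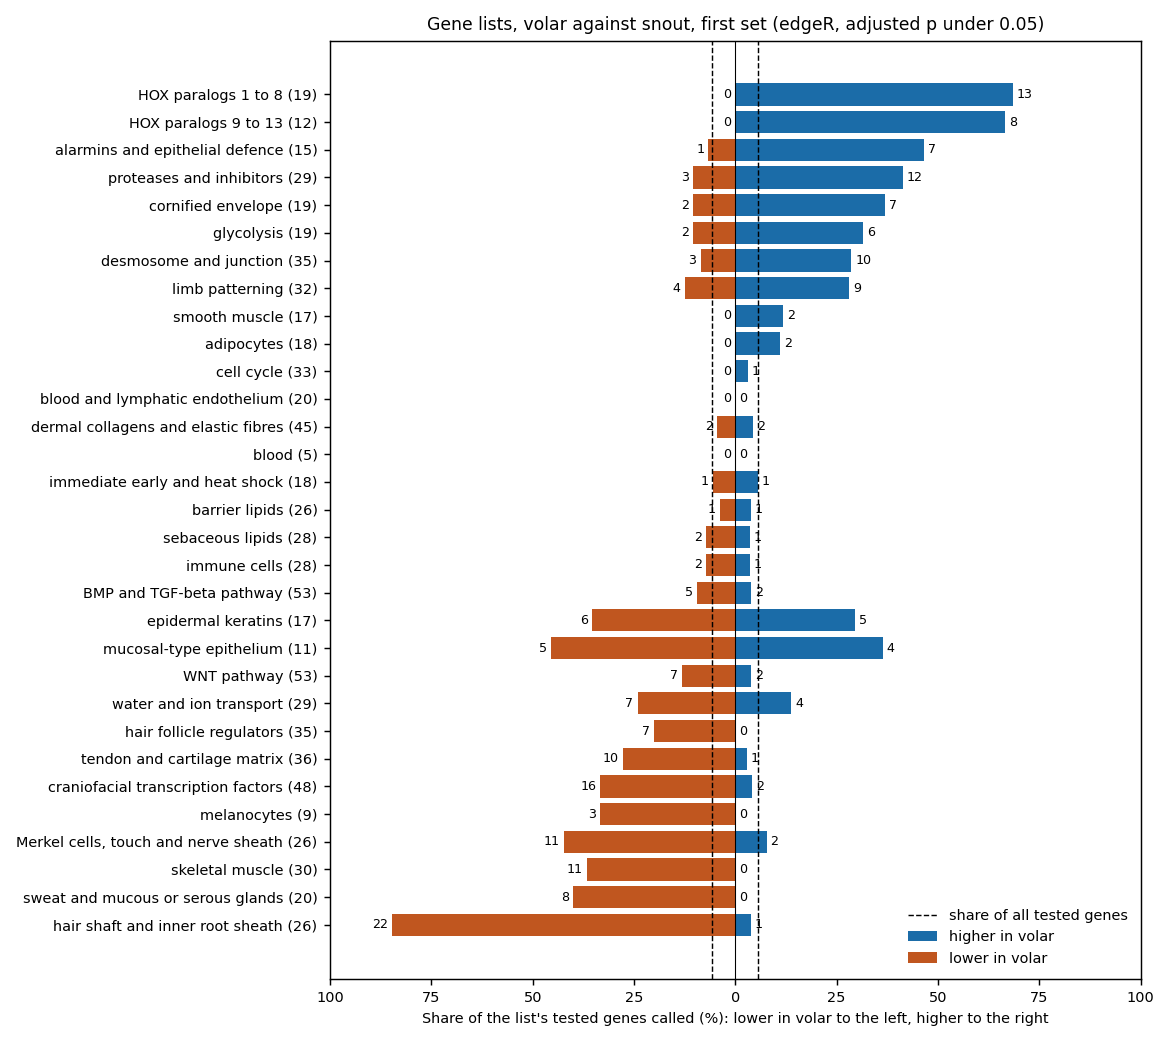
Share of each list's tested genes called in the first set (%), higher in volar to the right and lower in volar to the left, with the number called beside each bar, list sizes in brackets, and dashed lines at the shares over all tested genes (5.71% and 5.85%). Of the 31 lists, HOX paralogs 1 to 8 had 13 of 19 members higher and 0 lower, and the list of hair shaft and root sheath genes had 1 of 26 higher and 22 lower.

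The 2 sides used different epidermal keratins. Of 17 keratins of the list, 5 were higher in volar and 6 lower (4 and 5 without the 7-month snout library), with a median log2 fold change of -1.12. KRT10, the partner of KRT1, had 54998, 68378, 102971, 52182 and 57627 CPM in sole, against 9651, 9671, 17595, 7946 and 13324 CPM in snout (2.41 ± 0.26; adjusted p = 0.000392). KRT78, a type II keratin of stratified epithelia, had 2033, 5847, 7231, 2087 and 1729 CPM in sole, against 108, 223, 156, 104 and 221 CPM in snout (3.75 ± 0.49; adjusted p = 0.00118). Neither keratin overlapped between the sides. KRT2, a keratin of the upper spinous and granular layers, had 52.3, 41.9, 29.9, 492 and 528 CPM in sole, against 8.25, 9.01, 3.25, 8.14 and 2.42 CPM in snout (5.83 ± 1.03; adjusted p = 0.00544), and the 7- and 8-month sole libraries stood far above the other 3. Its first-set means were 2669 CPM in flank and 3696 CPM in dorsal skin, above both bare sites. KRT77 also rose (3.01 ± 0.73; adjusted p = 0.0245), but over the 10 libraries its levels overlapped, and its call was lost without any 1 library other than the 4-month volar one (adjusted p 0.0526 to 0.0831).

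On the other side, KRT15, a keratin of basal and follicle stem cells, had 3.64, 0.419, 0.458, 5.61 and 14.03 CPM in sole, against 160.5, 224, 119, 263 and 322 CPM in snout (-4.997 ± 0.50; adjusted p = 0.000235). KRT79, KRT23, KRT18 and KRT7 also fell in volar skin, with log2 fold changes of -5.52, -3.44, -3.98 and -4.71. KRT18 and KRT7 are keratins of simple and glandular epithelium. KRT23 lost its call without the 7-month volar or the 8- or 7-month snout library (adjusted p 0.0595 to 0.0896) and KRT7 without any 1 volar library (0.0564 to 0.0756). KRT23 also lost it in the fit of 2 sites (adjusted p = 0.114) and KRT7 in limma-voom (0.256). KRT3, a keratin known from cornea, was high on both sides, at 4631, 1477, 8445, 10429.9 and 22007 CPM in sole and 29979.7, 18874, 23071, 22452 and 28021 CPM in snout, and did not pass the test (-1.12 ± 0.91; adjusted p = 0.496). Its means were 3.02 CPM in flank and 16.8 CPM in dorsal skin. KRT9, the keratin known from human palms and soles, was not analysed here because no row of the table matched its symbol.

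Cornified envelope genes leaned to the volar side: of 19 tested, 7 were higher and 2 lower (6 and 1 without the 7-month snout library), and the median log2 fold change was 0.77. CASP14, the protease of cornification, had 163, 623, 999, 648 and 344 CPM in sole, against 18.99, 30.1, 32.3, 27.3 and 50.2 CPM in snout (3.58 ± 0.56; adjusted p = 0.00298). SERPINB12, an epithelial serine protease inhibitor, had 3406, 5845, 6011, 3603 and 1895 CPM in sole, against 542, 418, 545, 427 and 602 CPM in snout (2.50 ± 0.29; adjusted p = 0.000599). CDSN, the corneodesmosome adhesion protein, and DMKN, a secreted keratinocyte protein, rose by 1.42 ± 0.22 and 1.61 ± 0.25 on the log2 scale (adjusted p = 0.00276 and 0.00286). CNFN and CALML5, proteins of late differentiation, also rose, as did TGM3, a transglutaminase of the envelope, whose call was lost with the pig as block (adjusted p = 0.0606) and without any 1 library other than the 8-month volar one (0.0955 to 0.137). IVL, the envelope precursor involucrin, did not pass (0.996 ± 0.55; adjusted p = 0.293): its 4-month sole library, at 157 CPM, lay under all snout libraries. PADI1, which converts arginine to citrulline in epidermal proteins, went the other way, with 1.65, 3.91, 9.898, 7.77 and 2.503 CPM in sole, against 443, 559, 756, 399 and 735 CPM in snout (-7.05 ± 0.81; adjusted p = 0.000609).

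Genes that mark mucosal-type stratified epithelium split. Of 11 tested, 4 were higher in volar and 5 lower (3 and 5 without the 7-month snout library; median -0.22). CRNN, cornulin of the oesophagus and upper epidermis, had 1.67, 4.58, 3.94, 4.63 and 1.92 CPM in sole, against 266, 644, 329.7, 441 and 384 CPM in snout (-7.06 ± 0.54; adjusted p = 4.43e-05). TMPRSS11A and TMPRSS11E, proteases of the same family as TMPRSS11D, fell by 2.07 and 1.96 on the log2 scale in volar skin. Both lost their calls without the 4-month volar or the 8-month snout library, TMPRSS11A also without the 7-month and TMPRSS11E without the 8-month volar library (adjusted p 0.0527 to 0.0753). PAX9, a transcription factor of oral and oesophageal epithelium, was on the volar side, with 3.21, 1.71, 0.642, 1.72 and 2.13 CPM in sole, against 0.0159, 0.0742, 0.0541, 0.0974 and 0.0171 CPM in snout (5.64 ± 0.63; adjusted p = 0.00046). ECM1, a secreted matrix protein of skin, rose as well (1.31 ± 0.21; adjusted p = 0.00299).

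Of the proteases and their inhibitors, 12 of 29 were higher in volar and 3 lower (7 and 2 without the 7-month snout library), with a median of 0.80. SPINK9, a kallikrein inhibitor known from human palms and soles, had 288, 916, 712, 214 and 156 CPM in sole, against 7.27, 17.6, 15.8, 10.8 and 17.6 CPM in snout (4.20 ± 0.59; adjusted p = 0.00161). SERPINB13, a cysteine protease inhibitor of keratinocytes, had 203, 591, 559, 259.5 and 145 CPM in sole, against 13.7, 22.05, 26.3, 19.4 and 26.6 CPM in snout (3.35 ± 0.41; adjusted p = 0.000809). SERPINA12, the serpin vaspin, which inhibits KLK7, had 1020.1, 5497, 4875, 1591 and 986 CPM in sole, against 115, 113, 262, 87.8 and 170.4 CPM in snout (3.27 ± 0.42; adjusted p = 0.00104). The second-set sole libraries were the highest for all 3 inhibitors. The kallikreins, proteases of which several cut corneodesmosomes, did not move together: KLK5 rose (2.79 ± 0.48; adjusted p = 0.00444) and so did KLK14 and KLK8. KLK14 lost its call without the 7-month snout library (adjusted p = 0.0511) and KLK8 without any 1 library other than the 8-month volar one (0.073 to 0.106). KLK12 had 4.15, 10.6, 7.29, 5.81 and 2.02 CPM in sole, against 113, 175, 138, 115 and 184 CPM in snout (-5.12 ± 0.39; adjusted p = 4.43e-05). KLK6 fell too (-4.31 ± 0.87; adjusted p = 0.0111). SPINK5, the main inhibitor of these proteases in human skin, differed by 0.06 on the log2 scale and was not called.

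Alarmins and epithelial defence genes were higher in volar for 7 of 15 and lower for 1 (6 and 1 without the 7-month snout library; median 0.63). S100A8, a calcium-binding alarmin, had 3285, 5277, 9405, 3742 and 2394 CPM in sole, against 52.9, 369, 173, 187 and 34.5 CPM in snout (5.10 ± 0.84; adjusted p = 0.00381). S100A12, of the same family, had 4387, 8959.9, 16838, 5251 and 3909 CPM in sole, against 141, 699.7, 464, 361 and 71.5 CPM in snout (4.56 ± 0.66; adjusted p = 0.00195). Flank and dorsal skin had first-set means of 4.65 and 13.04 CPM of S100A12, so both bare sites stood above the haired ones. IL18, an epithelial cytokine, and PGLYRP4, a peptidoglycan recognition protein, rose by 2.97 ± 0.42 and 1.47 ± 0.20 (adjusted p = 0.00167 and 0.00126). S100A8 is also a gene of neutrophils. Of the immune cell list, 28 tested, S100A8 was the 1 member called higher and CD79B and KIT the 2 called lower, and PTPRC, the pan-leukocyte marker, differed by -0.25. Without the 7-month snout library CD79B and KIT were not called. CD79B also lost its call without the 4- or 8-month volar library (adjusted p 0.0631 and 0.0709), and KIT without the 4- or 7-month volar or the 8-month snout library (0.0803 to 0.138).

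Cell junction genes were higher in volar for 10 of 35 and lower for 3 (6 and 2 without the 7-month snout library), with a median of 0.56. GJA1, the gap junction protein connexin 43, had 4686, 6427, 4931, 4459 and 3649.6 CPM in sole, against 333, 437, 525, 402 and 429 CPM in snout (3.46 ± 0.26; adjusted p = 3.86e-05). Desmosome proteins rose by less: DSP, desmoplakin, by 0.83 ± 0.18, JUP, plakoglobin, by 1.01 ± 0.20, and PKP3, plakophilin, by 0.96 ± 0.18 (adjusted p = 0.0151, 0.00901 and 0.0063). ITGB4 and ITGA6, the hemidesmosome integrin, rose by 1.15 and 0.83. DSP lost its call without the 8- or 7-month snout library (adjusted p = 0.053 and 0.0698), and ITGA6 without any 1 library other than the 4-month snout one (0.0597 to 0.138). The claudins CLDN8 and CLDN3 were snout genes. CLDN8 had 0, 0, 0, 0 and 0.0194 CPM in sole, against 0.747, 1.01, 1.73, 6.64 and 3.77 CPM in snout (adjusted p = 0.000941), and with 1 count in the first-set volar libraries no fold is given.

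Barrier lipid genes were called about as often as all genes, although 22 of 26 had a positive log2 fold change. Of the 26 tested, ELOVL4, a very-long-chain fatty acid elongase, was called higher (0.99 ± 0.27; adjusted p = 0.0415) and CERS4, a ceramide synthase, lower (-1.32 ± 0.28; adjusted p = 0.0131), and the median was 0.59. The ELOVL4 call was lost with the pig as block (adjusted p = 0.0582) and when any 1 of the 6 libraries was left out.

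Water and ion transport genes divided by side, 4 of 29 higher in volar and 7 lower (4 and 5 without the 7-month snout library; median -0.12). AQP5, a water channel of sweat and salivary glands, had 2129, 5384, 4144, 1438 and 497 CPM in sole, against 40.5, 52.4, 64.3, 56.7 and 96.7 CPM in snout (4.39 ± 0.75; adjusted p = 0.00453). AQP2, the vasopressin-regulated water channel of the kidney, had 2.18, 9.37, 7.61, 3.16 and 2.04 CPM in sole, against 0.0159, 0.0148, 0.0811, 0.0278 and 0.0685 CPM in snout (5.98 ± 0.76; adjusted p = 0.000985). CA2, a carbonic anhydrase, had 260.2, 539, 290.3, 345 and 290.2 CPM in sole, against 59.1, 25.9, 57.2, 39.8 and 82.8 CPM in snout (2.30 ± 0.33; adjusted p = 0.00187). These 3 and the marker RHCG made up the 4 transport genes called higher, and the AQP5 level of the 8-month sole library was the lowest of the 5. AQP3, the glycerol channel of basal keratinocytes, was lower in volar, at 861, 1177, 1232, 951 and 1121 CPM in sole, against 1678, 1672, 1875, 1749 and 1792 CPM in snout (-0.83 ± 0.17; adjusted p = 0.0114). ANO1, a calcium-activated chloride channel, had 11.7, 16.1, 13.6, 23.1 and 17.3 CPM in sole, against 53.4, 53.9, 55.04, 71.3 and 65.6 CPM in snout (-1.87 ± 0.23; adjusted p = 0.000849). BEST2, another chloride channel, fell by 3.63 on the log2 scale and had an adjusted p of 0.052 without the 7-month volar library. ATP6V1B1, a proton pump subunit, had 0.0253, 0.0699, 0.0458, 0.0257 and 0.0194 CPM in sole, against 0.398, 3.56, 1.54, 8.83 and 5.47 CPM in snout (adjusted p = 0.00175); the volar libraries held 3 counts, so no fold is given.

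Gland genes were on the snout side, but not in every snout library. Of 20 tested, 0 were higher in volar and 8 lower (0 and 6 without the 7-month snout library), and the median was -3.80, or -2.98 with genes lacking a count in 1 site at their bound. The summed list had 13.3, 15.1, 14.1, 15.8 and 11.8 CPM in sole, against 36.1, 56.5, 851, 10338 and 3755 CPM in snout. SAL1, the salivary lipocalin that carries pheromones in boars, had 0.101, 0.2097, 0, 0.309 and 0.175 CPM in sole, against 1.62, 0.861, 751, 9474 and 3488 CPM in snout (-14.44 ± 2.63; adjusted p = 0.00631). The snout libraries of the 4- and 5-month pigs thus held little of it, and those of the 6-, 7- and 8-month pigs much. SAL1 was not called by limma-voom (adjusted p = 0.472) or in the fit of 2 sites (0.0671), and was called when any 1 library was left out (0.000132 to 0.0353). PHEROC, a pheromone-binding salivary protein, followed the same libraries, with 0, 0, 0, 0.0257 and 0.0388 CPM in sole, against 0.223, 0.0148, 29.99, 747 and 198 CPM in snout (adjusted p = 0.0219). WFDC2, a secreted inhibitor of glandular epithelium, had 0.0253, 0, 0, 0.206 and 0.272 CPM in sole, against 0.254, 0.416, 8.71, 13.2 and 7.18 CPM in snout (-5.32 ± 1.26; adjusted p = 0.0213). PHEROC lost its call without any 1 volar library (adjusted p 0.073 to 0.0896), and WFDC2 without any 1 volar library or the 7-month snout library (0.0564 to 0.0787). Neither PHEROC nor WFDC2 was called by limma-voom (adjusted p = 0.668 and 0.246) or in the fit of 2 sites (0.081 and 0.0726). CA6, the secreted carbonic anhydrase of saliva, was spread more evenly, at 0.0506, 0.419, 0.137, 0.103 and 0.136 CPM in sole, against 6.06, 25.1, 16.96, 11.3 and 8.98 CPM in snout (-6.44 ± 0.87; adjusted p = 0.00126). PIGR, which moves antibodies across glandular epithelium, fell by 3.87 on the log2 scale (adjusted p = 0.00604). Among the snout libraries age and gland content cannot be told apart, since each age is 1 pig.

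Hair genes lay almost wholly on the snout side. Of 26 genes of the hair shaft and its sheath, 22 were lower in volar and 1 was higher (13 and 1 without the 7-month snout library). Most of these calls were lost in limma-voom, among them KRT28, KRT32, KRT35, KRT72, KRT73, KRT82, KRT85, KRTAP11-1, KRTAP24-1 and VSIG8 (adjusted p 0.108 to 0.381). KRT71, KRT25, KRT27 and HEPHL1 kept theirs (0.0323 to 0.0478). The median log2 fold change of the list was -7.19, or -6.84 at the bounds. The summed list had 77.2, 411, 143, 64.4 and 69.6 CPM in sole, against 404, 803, 1414, 1151 and 1252 CPM in snout. The sums overlapped, since the 5-month sole library lay above the 4-month snout library. KRT71, an inner root sheath keratin, had 0.0253, 21.1, 0.0917, 0.154 and 0.0776 CPM in sole, against 114, 233, 488, 326 and 353 CPM in snout (-11.57 ± 1.24; adjusted p = 0.000402). KRT85, a hair cortex keratin, had 0.0253, 0, 0, 0.283 and 0 CPM in sole, against 21.7, 50.1, 63.6, 85.7 and 78.02 CPM in snout (-9.32 ± 1.34; adjusted p = 0.00191). VSIG8, a membrane protein of hair and nail, had 0.0253, 0.1398, 0.0917, 0.0257 and 0.0388 CPM in sole, against 34.3, 47.1, 50.9, 60.9 and 53.8 CPM in snout (-10.56 ± 1.32; adjusted p = 0.000982). The 4-month snout library was the lowest of the 5 in all 3 genes, and the 5-month sole library was the highest of the sole side for KRT71. KRT35, a hair keratin, and KRTAP11-1, a keratin-associated protein, fell by 8.86 and 8.49 on the log2 scale (adjusted p = 0.00191 and 0.00466). These keratins belong to families of near copies, and how the estimates shared reads between copies is not given in the sources used here.

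The summed hair list was higher in first-set haired skin than in snout, except in the 4-month flank library. It had 663, 9271 and 4292 CPM in flank and 6812, 7458 and 18266 CPM in dorsal skin of the 4-, 7- and 8-month pigs. The 4-month flank value lay within the snout range of 404 to 1414 CPM. First-set means of KRT71 were 1273 CPM in flank and 2999 CPM in dorsal skin, against 264 ± 131 CPM (SD, n = 3) in snout. CRYM, a thyroid-hormone-binding protein, was the 1 member called higher, with 57.1, 114, 103, 52.4 and 64.2 CPM in sole, against 17.9, 26.4, 25.7, 18.2 and 22.5 CPM in snout (1.57 ± 0.26; adjusted p = 0.00413). KRT36, KRT84 and KRT40 were the members not called. KRT36, a keratin of hair and nail, had 3.32, 170.4, 1.15, 0.0514 and 0 CPM in sole, against 1.03, 1.78, 2.97, 3.76 and 6.53 CPM in snout. KRT84 had 2.08, 80.2, 4.31, 0.129 and 0.252 CPM in sole, against 0.652, 0.728, 1.65, 2.13 and 3.102 CPM in snout. The 5-month sole library stood far above the other sole libraries in both.

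Follicle regulators were lower in volar for 7 of 35 and higher for 0 (6 and 0 without the 7-month snout library; median -0.64). LGR5, a receptor of follicle stem cells, had 0 CPM in all 5 sole libraries, against 1.54, 3.67, 3.62, 2.37 and 4.47 CPM in snout, and was at least 118-fold lower in volar (adjusted p = 0.000224). GLI1 and GLI2, the transcription factors of hedgehog signalling, fell by 1.90 and 1.58 on the log2 scale (adjusted p = 0.0129 and 0.0126). Both lost their calls in the fit of 2 sites alone, and GLI1 also without the 8-month volar library. Sebaceous lipid genes had 1 of 28 higher, FAR1, and 2 lower, DGAT2L6 and KRT79, with a median of -0.75.

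**Figure D3:**
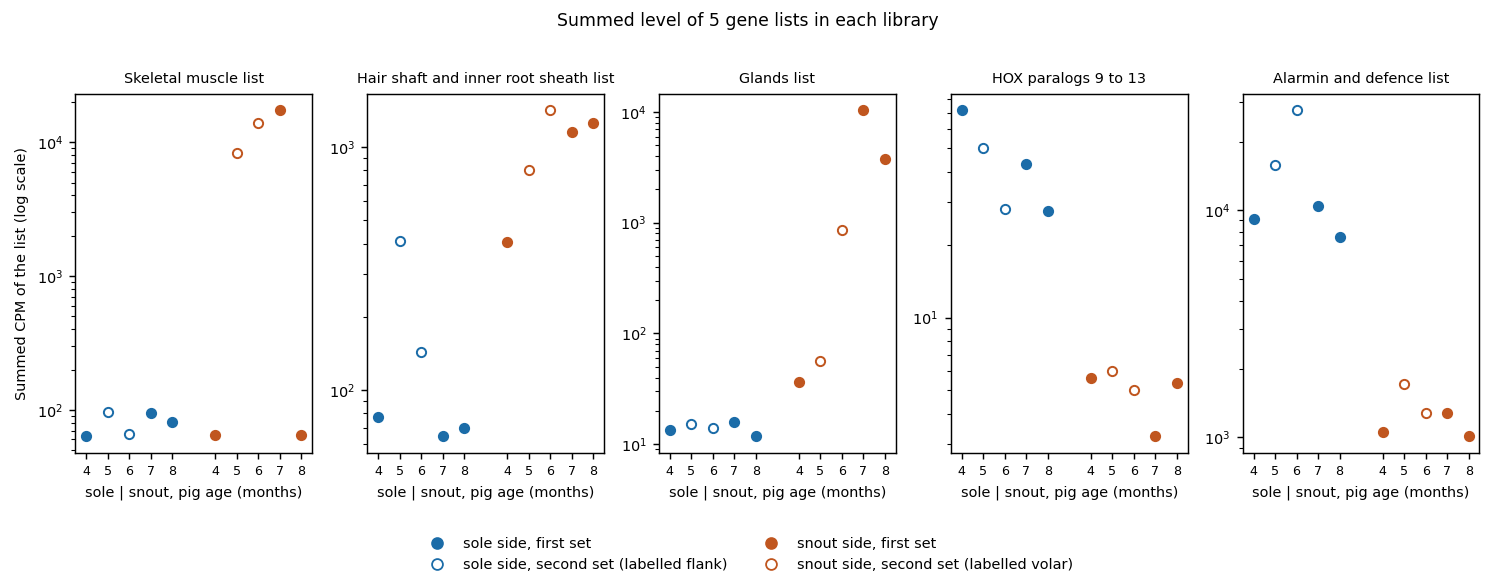
Summed level of 5 gene lists in each library (CPM, log scale), sole left and snout right in each panel with pig age in months along the axis; filled points are the first set and open points the second. Muscle sums are high in the snout libraries of the 5-, 6- and 7-month pigs, gland sums in those of the 6-, 7- and 8-month pigs, and the HOX and alarmin sums are higher in all 5 sole libraries.

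The plot of list sums sets these tissues side by side. The snout libraries with muscle and those rich in gland genes were not the same: the 8-month library had 3488 CPM of SAL1 and a muscle sum of 64.8 CPM, and the 5-month library 0.861 CPM of SAL1 and a muscle sum of 8345 CPM. The part of either tissue in the other differences was not tested.

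HOX genes lay on the volar side. Of 19 tested HOX genes of paralog groups 1 to 8, 13 were higher in volar and 0 lower (12 and 0 without the 7-month snout library; median 4.08, or 3.69 at the bounds). Of 12 of groups 9 to 13, 8 were higher and 0 lower (8 and 0; median 8.17, or 6.40 at the bounds). The higher-numbered groups are those of the limb and hind body. Summed groups 1 to 8 had 24.4 to 39.8 CPM in sole and 10.7 to 13.7 CPM in snout. First-set haired skin had 95.4 to 102.8 CPM in flank and 37.1 to 58.01 CPM in dorsal. For groups 9 to 13 the sums were 27.6 to 71.8 CPM in sole and 3.23 to 5.999 CPM in snout. They were 22.2 to 27.8 CPM in flank and 44.8 to 67.6 CPM in dorsal skin. Snout libraries thus had the lowest sums of both lists.

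HOXC10, a gene of the hind limb and lower trunk, had 5.01, 3.21, 5.09, 4.12 and 3.05 CPM in sole and 0 in all 5 snout libraries, at least 255-fold higher in volar (adjusted p = 0.000133). HOXC11 had 5.85, 3.63, 5.36, 3.11 and 4.09 CPM in sole and 0 in every snout library, at least 279-fold higher (adjusted p = 2.61e-05). HOXC9, HOXC12 and HOXC4 were likewise at 0 in the 5 snout libraries and at least 104-, 68.9- and 70.8-fold higher in volar. HOXA9 had 34.1, 24.4, 1.28, 24.1 and 1.88 CPM in sole, against 0, 0.0297, 0, 0 and 0 CPM in snout, at least 1179-fold higher in volar (adjusted p = 0.00534). Its sole libraries fell into high values in the 4-, 5- and 7-month pigs and low values in the 6- and 8-month pigs. HOXA11 had 5.26, 0.594, 0.733, 1.34 and 2.37 CPM in sole, against 0.0159, 0.0445, 0, 0.0139 and 0.0171 CPM in snout (adjusted p = 0.00132), and with 3 counts in the first-set snout libraries no fold is given. HOXA5, of a lower-numbered group, had 9.59, 6.15, 2.02, 9.39 and 3.03 CPM in sole, against 0.461, 0.356, 0.406, 0.3202 and 0.514 CPM in snout (4.08 ± 0.55; adjusted p = 0.00126).

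Several HOXD genes were detected on both sides. HOXD8 had 14.8, 11.6, 12.1, 8.23 and 12.9 CPM in sole and 10.03, 10.2, 10.03, 9.06 and 8.17 CPM in snout (0.40 ± 0.22; adjusted p = 0.295). HOXD9 and HOXD10 were also detected on both sides, with log2 fold changes of 0.52 ± 0.34 and 1.11 ± 0.45 (adjusted p = 0.381 and 0.144). HOXD11 was called (2.42 ± 0.61; adjusted p = 0.0269), with 2.05, 2.202, 1.88, 1.18 and 2.89 CPM in sole, against 0.652, 0.445, 0.4598, 0.0835 and 0.411 CPM in snout. Its call was lost without the 4- or 8-month volar or the 8-month snout library (adjusted p 0.0539 to 0.0826). HOXC13, which hair and nail cells also use, had 3.62, 4.58, 3.62, 1.57 and 1.61 CPM in sole, against 0.938, 0.921, 1.27, 1.197 and 1.51 CPM in snout, and was not called (0.90 ± 0.54; adjusted p = 0.333). The difference between clusters was not tested. HOXA13 and HOXD13 had no row under their symbols and were not analysed here. Neighbouring HOX genes have overlapping transcripts, so single genes of a cluster are less certain than the cluster.

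**Figure D4:**
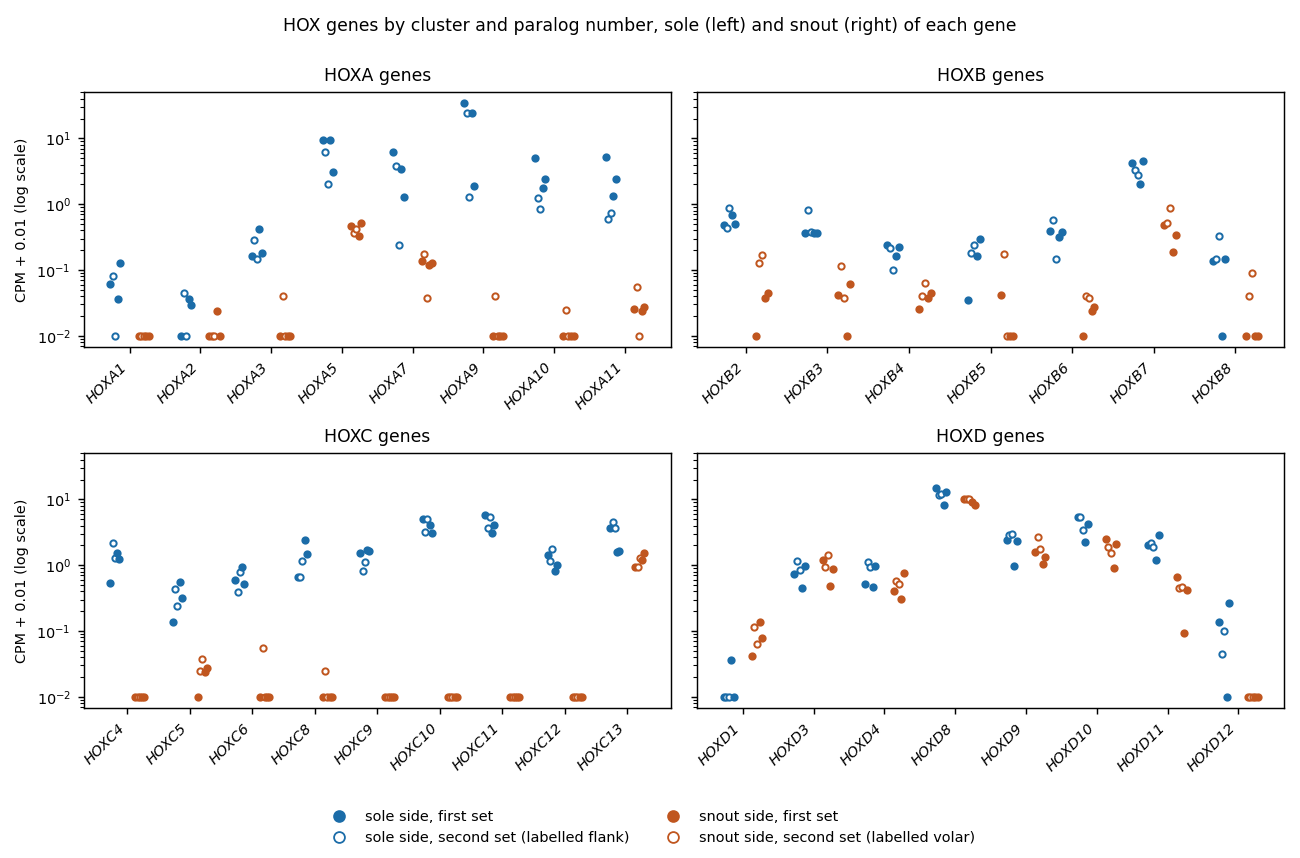
Levels of HOX genes in the 10 libraries (CPM with 0.01 added, log scale), 1 panel for each cluster, genes in order of paralog number, sole left and snout right of each gene; filled points are the first set and open points the second. HOXC9 to HOXC12 sit at 0 in every snout library, while HOXD8 has 8.23 to 14.8 CPM in sole, against 8.17 to 10.2 CPM in snout.

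Limb patterning genes outside HOX were higher in volar for 9 of 32 and lower for 4 (3 and 4 without the 7-month snout library; median 0.27). TBX5, the forelimb T-box gene, had 3.37, 0.699, 2.52, 1.72 and 5.34 CPM in sole, against 0, 0.0148, 0, 0 and 0.0171 CPM in snout (adjusted p = 8.33e-05), with 1 count in the first-set snout libraries. TBX4, the hindlimb T-box gene, had 4.23, 3.42, 1.79, 2.55 and 1.82 CPM in sole, against 0.461, 0.935, 0.541, 0.334 and 0.548 CPM in snout (2.67 ± 0.56; adjusted p = 0.0121), and its adjusted p was 0.0517 without the 7-month snout library. Both T-box genes were thus detected in every sole library, and the labels do not say which foot was sampled. PITX1, a hindlimb gene, was not analysed here, as no row matched its symbol. LMX1B, the homeobox gene that specifies the dorsal limb, had 1.49, 2.38, 2.75, 1.67 and 1.09 CPM in sole, against 21.8, 13.5, 16.1, 18.1 and 20.7 CPM in snout (-3.84 ± 0.30; adjusted p = 5.25e-05). MSX1, a homeobox gene of limb and face, had 10.4, 8.56, 6.97, 9.52 and 6.37 CPM in sole, against 86.9, 79.3, 72.97, 78.8 and 54.01 CPM in snout (-3.07 ± 0.28; adjusted p = 0.000133). SALL1, SP6, GLI3, MEIS1 and DLX6 were the other limb genes called higher, with log2 fold changes of 3.06, 1.36, 1.11, 0.99 and 1.34. All 5 lost their calls without the 7-month snout library (adjusted p 0.0597 to 0.0877), and each also without at least 1 other library (up to 0.095). SP8, TBX5 and the marker EN1 were the 3 limb genes still called higher without it. DKK1, the WNT inhibitor known from human palms and soles, did not pass (-0.49 ± 0.59; adjusted p = 0.672), at 0.101, 0.105, 0.137, 0.566 and 0.369 CPM in sole and 0.731, 0.371, 0.297, 0.348 and 0.377 CPM in snout.

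Craniofacial transcription factors were lower in volar for 16 of 48 and higher for 2 (11 and 1 without the 7-month snout library; median -0.50). PAX3, a neural crest and muscle precursor gene, had 0, 0, 0, 0.0257 and 0.0582 CPM in sole, against 5.34, 7.29, 5.63, 4.54 and 4.16 CPM in snout (-7.19 ± 0.97; adjusted p = 0.0013). OTX1, a homeobox gene of the head, had 5.57, 2.03, 5.87, 5.02 and 9.68 CPM in sole, against 68.1, 62.1, 52.6, 57.04 and 58.1 CPM in snout (-3.17 ± 0.27; adjusted p = 9.71e-05). Neither gene was confined to the snout libraries that carried muscle: the 4- and 8-month libraries had them too. ALX4, a relative of ALX1, fell by 3.81 on the log2 scale (adjusted p = 0.00991). SIX4, a homeobox gene that muscle also expresses, had 0.607, 0.175, 0, 0.206 and 0.194 CPM in sole, against 2.24, 5.33, 9.49, 10.02 and 4.87 CPM in snout (-4.10 ± 0.63; adjusted p = 0.00254), with its highest levels in the snout libraries of the 6- and 7-month pigs. PAX7, the satellite cell gene, had 0 CPM in all 5 sole libraries and 0.445, 0.995, 0.757, 1.03 and 0.188 CPM in snout, at least 25.3-fold lower in volar (adjusted p = 0.0374). Its call was lost with the pig as block (adjusted p = 0.0597) and without any 1 library other than the 8-month snout one (0.0675 to 0.0854).

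**Figure D5:**
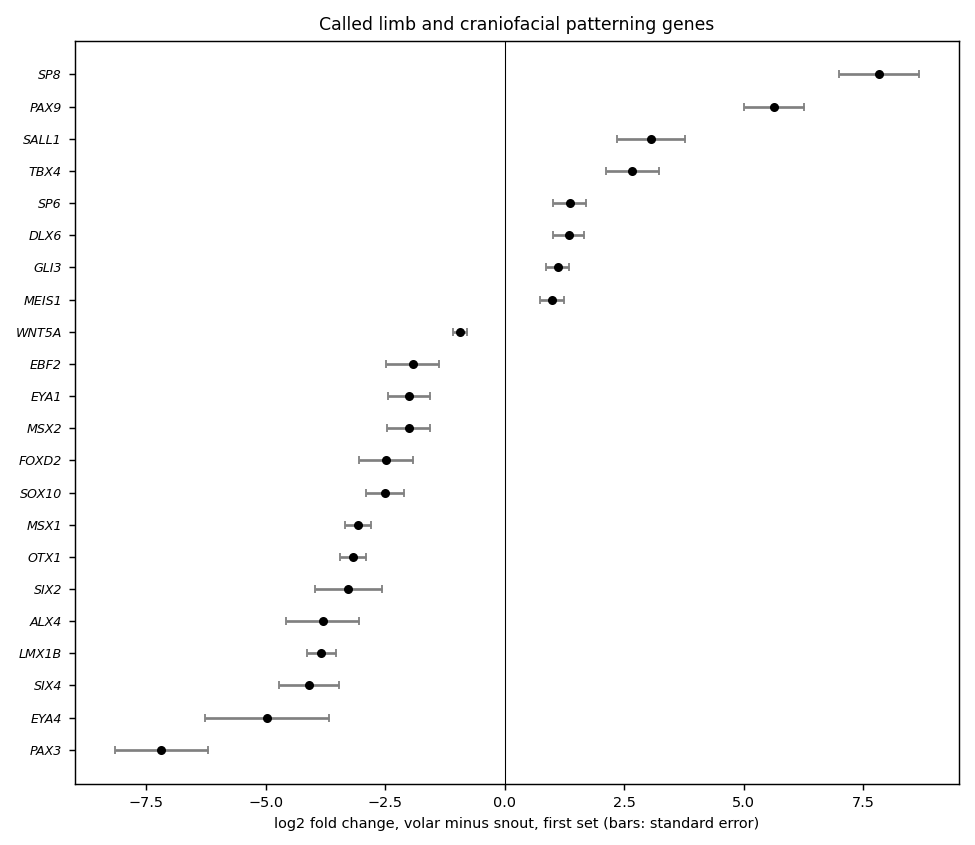
Log2 fold changes with standard errors (volar minus snout, first set, 3 pigs each) of called limb and craniofacial transcription and signalling genes; TBX5 and PAX7, which had at most 1 count in a group, and the markers EN1 and ALX1 are not drawn. SP8 and PAX9 lie farthest to the volar side and PAX3 and EYA4 farthest to the snout side. EYA4 lost its call with the pig as block, in limma-voom and in the fit of 2 sites (adjusted p 0.0848 to 0.246). It also lost its call without any 1 volar library or the 7-month snout library (0.0791 to 0.152).

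Beneath the epidermis, tendon and cartilage genes were lower in volar for 10 of 36 and higher for 1 (6 and 0 without the 7-month snout library; median -0.75). COL11A1, a fibrillar collagen of cartilage, had 9.34, 1.05, 0.504, 2.39 and 1.16 CPM in sole, against 104, 136, 104, 113 and 76.9 CPM in snout (-4.52 ± 0.68; adjusted p = 0.00249). MKX, a tendon homeobox gene, had 7.59, 5.98, 7.24, 5.25 and 5.67 CPM in sole, against 32.8, 29.2, 27.7, 18.9 and 19.1 CPM in snout (-1.94 ± 0.25; adjusted p = 0.000982). CHAD, a cartilage matrix protein, and COL9A1, a cartilage collagen, fell by 3.95 and 3.43 on the log2 scale (adjusted p = 0.00212 and 0.00238). These genes were low in every sole library. THBS4, a matrix protein of tendon, was abundant on both sides, at 2561, 1545, 719, 1016 and 1399 CPM in sole and 1093, 1098, 753, 635 and 579 CPM in snout, and was not called (1.11 ± 0.48; adjusted p = 0.17), against means of 8.801 CPM in flank and 39.1 CPM in dorsal skin. Of 45 dermal collagen and elastic fibre genes, COL4A5 and COL4A6, basement membrane collagens, were higher and LTBP1 and LTBP2, microfibril proteins, lower (median -0.40). COL4A5 and LTBP1 lost their calls without the 7-month snout library. COL4A5 lost it also without any other library than the 4-month snout one (adjusted p 0.0647 to 0.115), and LTBP1 without the 8- or 7-month volar or the 4-month snout library (0.0893 to 0.113).

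Of 18 adipocyte genes 2 were higher, PNPLA2 and CEBPA, and 0 lower, with a median of -1.20. The defining gene of fat cells, ADIPOQ, had 3.39, 3.01, 2.57, 2.57 and 15.6 CPM in sole, against 19.1, 121, 34.2, 76.9 and 125 CPM in snout, and did not pass (-3.35 ± 1.22; adjusted p = 0.106). PNPLA2, a lipase, and CEBPA, a transcription factor, are also expressed by keratinocytes. PNPLA2 lost its call without the 8- or 7-month volar or the 8-month snout library (adjusted p 0.0518 to 0.0686). CEBPA lost it without any of the same 3 or the 4-month snout library (adjusted p 0.0702 to 0.07996). Smooth muscle genes were higher for 2 of 17, SMTN at 2.31 ± 0.25 (adjusted p = 0.000392) and RGS5 at 0.74 ± 0.20 (adjusted p = 0.0396). RGS5 lost its call in the fit of 2 sites and without any 1 library other than the 7-month volar one (adjusted p 0.0516 to 0.128), so that SMTN alone was called without the 7-month snout library. Endothelial genes had 0 of 20 called and a median of 0.20. The skeletal muscle list had 0 of 30 higher and 11 lower, but 1 higher and 1 lower without the 7-month snout library. Most of its calls were thus lost without that library. With the pig as block it had 0 higher and 1 lower. All 11 calls were lost also without any 1 volar library (adjusted p 0.0729 to 0.146) and in limma-voom (0.351 to 0.661).

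Nerve sheath and touch genes were lower in volar for 11 of 26 and higher for 2 (9 and 0 without the 7-month snout library; median -1.49). SOX10, the Schwann cell and melanocyte factor, had 0.658, 0.2097, 0.367, 0.412 and 0.737 CPM in sole, against 1.89, 2.63, 2.33, 5.22 and 3.22 CPM in snout (-2.51 ± 0.40; adjusted p = 0.00304). ISL1, a homeobox gene of sensory neurons and Merkel cells, had 0.127, 0.0699, 0.0458, 0.1801 and 0.155 CPM in sole, against 5.502, 5.63, 6.71, 6.17 and 1.06 CPM in snout (-4.77 ± 0.79; adjusted p = 0.00375). NGFR, CDH19 and PRX, further Schwann cell genes, also fell, with log2 fold changes of -2.67, -2.28 and -1.45, and each had all 5 sole libraries below all 5 snout libraries. PIEZO2, the touch channel, fell by 1.30 on the log2 scale (adjusted p = 0.0322). Its call was lost without the 8- or 7-month volar or the 8- or 7-month snout library (adjusted p 0.0746 to 0.115). ATOH1 and KRT20, Merkel cell genes, had lower levels in all 5 sole libraries than in any snout library but did not pass (-1.78 ± 1.01 and -1.44 ± 0.54; adjusted p = 0.298 and 0.115). Of 9 melanocyte genes 3 fell, SOX10, DCT and KIT, and of these SOX10 kept its call without the 7-month snout library. DCT lost its call without any 1 library other than the 4-month snout one (adjusted p 0.0646 to 0.0952).

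Signalling genes moved in small numbers. Of 53 WNT pathway genes 2 were higher and 7 lower (2 and 5 without the 7-month snout library; median -0.23). TCF7, a nuclear effector of WNT signals, had 12.4, 30.9, 11.7, 12.8 and 5.43 CPM in sole, against 2.29, 3.76, 3.84, 2.98 and 2.72 CPM in snout (1.93 ± 0.40; adjusted p = 0.0116). The inhibitor SFRP2 had 4.61, 1.08, 0.642, 1.21 and 1.09 CPM in sole, against 23.2, 23.1, 13.7, 20.3 and 16.1 CPM in snout (-3.12 ± 0.57; adjusted p = 0.00611). FZD3, a receptor, and WNT16 and WNT5A, ligands, fell by 2.02, 1.56 and 0.94 on the log2 scale. Of 53 BMP and TGF-beta pathway genes 2 were higher and 5 lower (2 and 4; median -0.18). The receptor TGFBR1 had 237, 188, 148, 217 and 202 CPM in sole, against 117, 110.0, 114, 108 and 126 CPM in snout (0.90 ± 0.13; adjusted p = 0.00187). MSTN, myostatin of skeletal muscle, had 0.0253, 0.105, 0, 0 and 0 CPM in sole, against 0.334, 1.92, 3.92, 4.23 and 0.703 CPM in snout (adjusted p = 0.0113), highest in the snout libraries that carried muscle. Its adjusted p was 0.0502 without the 7-month volar library.

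Glycolysis genes were higher in volar for 6 of 19 and lower for 2 (7 and 0 without the 7-month snout library), with a median of 0.58. LDHA, which makes lactate, had 625, 539, 414, 478 and 432 CPM in sole, against 221, 194, 246, 260.3 and 159 CPM in snout (1.26 ± 0.21; adjusted p = 0.00378). ENO1, TPI1, PKM, HK1 and PGAM1 rose by 0.88, 0.98, 0.68, 0.68 and 0.64. HK1 lost its call without the 4-month volar or the 7-month snout library (adjusted p = 0.0536 and 0.0662). ALDOA, an aldolase, was 1 of the 2 lower genes. It had 1.47, 1.26, 0.825, 0.9003 and 1.86 CPM in sole, against 2.004, 69.01, 109, 157 and 3.14 CPM in snout (-5.26 ± 1.43; adjusted p = 0.0389). Its 3 high snout libraries were those with muscle. The ALDOA call was lost with the pig as block (adjusted p = 0.144) and without any 1 volar library or the 7-month snout library (0.104 to 0.21). It was lost also in limma-voom (adjusted p = 0.3995), in the fit of 2 sites (0.187) and with no count filter (0.052). Of 33 cell cycle genes 1 was called, the inhibitor CDKN1A, with 48.1, 49.8, 52.5, 44.4 and 26.1 CPM in sole, against 18.9, 11.4, 14.1, 14.5 and 13.3 CPM in snout (1.34 ± 0.24; adjusted p = 0.0049). TOP2A, a proliferation marker, differed by -0.07 ± 0.32 (adjusted p = 0.928). Among 18 immediate early and heat shock genes HSPB1, a small heat shock protein of differentiating keratinocytes, rose (1.48 ± 0.23; adjusted p = 0.00254) and EGR2, which Schwann cells also use, fell (-2.61 ± 0.54; adjusted p = 0.012). Of 5 blood genes 0 were called, and HBB, a globin, differed widely within each side.

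The haired sites of the first set were set beside both. Among the 338 genes called higher in volar by at least 2-fold on the log2(CPM + 0.5) scale, the flank mean lay nearer the snout mean for 278 (82.2%) and the dorsal mean for 266 (78.7%). Among the 631 called lower by at least 2-fold, the flank mean lay nearer the snout mean for 399 (63.2%) and the dorsal mean for 397 (62.9%). Over all 1416 genes at least 2-fold apart these shares were 68.1% and 66.6%. Both haired means lay nearer volar for 49 of the 338 and for 196 of the 631. These shares are a description over genes and carry no test.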

How the data were processed

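RNA from skin biopsies (4 mm punch, kept in RNAlater) was sequenced from TruSeq stranded mRNA libraries, per the labels' protocols. The deposited table holds estimated counts per gene made by the authors with Salmon, per the submitters' processing notes. Genome build, annotation and Salmon version were not given in the sources used here, so coordinates are left out. Of the estimated counts 42.2% had decimals (tolerance 1e-09), so all were rounded before testing. Of 19280 gene identifiers 14821 matched a symbol in the supplied RefSeq-based name tables, and 1511 had no count in any library.

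Totals ran from 34077861 to 66906489 counts over the 20 libraries. Counts carry no molecular identifiers, so bounds cover counting error only. CPM used TMM factors over all 20 libraries. These were 0.574 and 0.569 in the sole libraries of the 6- and 5-month pigs. In first-set sole libraries they were 0.74 to 0.812, and in the snout libraries 1.06 to 1.115. A factor under 1 puts CPM above the plain share of counts, as for KRT1 in sole.

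The test was edgeR 4.0.16 (R 4.3.3), quasi-likelihood with robust fits on site means of the 12 first-set libraries (8 residual degrees of freedom), TMM scaling, filterByExpr (count minimum 10, total minimum 15), contrast volar minus snout, adjusted p under 0.05. Values after ± are standard errors for log2 fold changes and SD for means. The 5 against 5 comparison has no test, because second-set libraries were placed by expression. Alternatives were the pig as block, median-of-ratios and upper-quartile scaling, DESeq2 1.42.0, limma-voom (limma 3.58.1), other count filters, a fold minimum, a fit of 2 sites, the 20 most abundant genes or the muscle list left out, all libraries as labelled, and each library left out. The scripts were tested on simulated counts.

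The labels' pig identifiers pair volar and snout libraries. Deviations of the same pig from the site means correlated at 0.318, 0.0777 and 0.0333 for the 4-, 8- and 7-month pigs. Volar and snout libraries of different pigs correlated at -0.244 to 0.17, so of the same-pig values only that of the 4-month pig lay above this range.

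Genes were named by rule: a symbol, adjusted p under 0.05, 5 CPM or more as first-set mean in the higher of both sites, no overlap between the 5 sole and 5 snout libraries, and of these the 12 largest log2 fold changes in each direction; up to 4 members with the smallest adjusted p from each of 31 lists; and a set of positional and keratin genes in any case. A few list members are counted but not reported by name. Further list members were named after their values were seen. The grouping, the members and the lists were chosen with earlier results of these data known. A fold against a group with 0 counts is a bound at 3 counts over the group; with 1 to 3 counts no fold is given, only levels.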

Additional observations from a re-analysis of the deposited data

Results flagged for a closer look

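Within the 5 sole or the 5 snout libraries, 6 values of the screened genes lay far from the other 4 by Dixon's test. In all, 65 groups were tested, and chance flags about 1 in 20 where values are continuous. The genes named by rule and tested were 100, so these groups do not cover all of them on both sides. A lone value above 0 beside 4 values of 0 is flagged by construction. The flags of HOXA9, SP8 and DGAT2L6 are of this kind and carry no weight. In the sole library of the 5-month pig, KRT71, an inner root sheath keratin, was at 21.1 CPM, against 0.0253 to 0.154 CPM in the other sole libraries. DGAT2L6 was at 0.105 CPM in the same library and at 0 in the others. The hair gene list summed to 411 CPM there, against 64.4 to 143 CPM in the other sole libraries and 404 CPM in the lowest snout library, that of the 4-month pig, and HEPHL1, a follicle ferroxidase of the list, had 7.97 CPM. In the sole library of the 7-month pig, KRT85 was at 0.283 CPM, against 0 to 0.0253 CPM in the others.

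On the snout side, HOXA9 was at 0.0297 CPM in the library of the 5-month pig and at 0 in the other 4. SP8 was at 0.0696 CPM in the library of the 7-month pig and at 0 in the other 4. DKK1 was at 0.731 CPM in the library of the 4-month pig, against 0.297 to 0.377 CPM in the others.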

How the results depend on the processing

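Of 15302 genes, 1768 were called. With the pig as replicate block 2250 were called (1161 higher and 1089 lower in volar), of which 1674 were shared; of the 100 genes named by rule and tested, ELOVL4 alone lost its call under the block. A fit of the 6 volar and snout libraries alone, with 4 residual degrees of freedom, called 1305 genes, 1185 of them shared with the main fit. DESeq2 called 2725 genes, 1369 higher and 1356 lower. A log2 fold change of at least 1 left 1104, 388 of them higher. Leaving out 1 library at a time gave 1025 to 1499 genes, 502 to 713 higher and 501 to 886 lower; the lone removals that moved the count by over 1.5 times were those of the 7-month volar and the 7-month snout library, and for genes called higher also the 8-month snout library (506). With each median-of-ratios or upper-quartile scaling the median of all genes moved by under 0.1 on the log2 scale. The split by direction moved more: upper-quartile scaling called 755 genes higher and 977 lower, against 873 and 895 in the main fit. Median-of-ratios scaling called 869 and 884, and limma-voom 825 and 677. As labelled, with all 20 libraries in the fit, edgeR called 0 genes (0 higher, 0 lower; 992 at an unadjusted p under 0.05; lowest adjusted p 0.738), and 8 named genes changed sign: KRT2 (-2.49), TBX5 (-0.35), HOXC6 (-0.0482), HOXC8 (-0.95), HOXA5 (-0.0184), HOXC9 (-0.0438), HOXC12 (-0.0246) and CEBPA (-0.28). In that fit the volar group held the first-set sole libraries and the second-set libraries of the snout side. The snout group held the first-set snout libraries and the second-set ones labelled snout, which correlated best with first-set dorsal skin (r of 0.86 and 0.82). The second-set sole libraries were in the flank group. Without the 3 snout libraries that carried muscle, 4915 genes did not overlap between sides, and with the second-set libraries alone 10931, against 3198 over 10 libraries; fewer libraries overlap less often by construction. Limma-voom lost the calls of 12 of the genes named by rule: HOXA9, KRT85, KRT35, VSIG8, KRTAP11-1, DGAT2L6, SAL1, KRT79, DCT, KIT, FST and EGR2 (adjusted p 0.052 to 0.472). Of the named values 1525 kept direction and call and 159 kept direction alone. Genes at a few counts in 1 site rest on the bound given.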
